A study of Mus musculus with 9 samples.

Results

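The comparison described here set 3 arrays of mouse bone marrow cells carrying mutant IDH1 (IDH1mut) against 3 arrays of cells carrying an empty vector (CTL), across every annotated gene of the deposited table. These were 6 of the 9 arrays of the series; the other 3, of cells carrying wild-type IDH1 (IDH1wt), entered the model and are given where they bear on a gene. A gene was represented by its probe set with a single gene symbol and, where there were several, by the one with the highest mean, which gave 17731 genes from 20877 probe sets. All groups were bone marrow cells of C57BL6 mice immortalised with HoxA9, infected with a retroviral vector that also carried a green fluorescent protein, and injected into irradiated mice of the same strain. The pSF91 vector held IDH1wt or IDH1mut before the fluorescent protein gene in the IDH1 groups, and the fluorescent protein without IDH1 in CTL. Fluorescent cells were sorted from recipients' marrow 4 weeks after transplantation, and total RNA was hybridised. The labels do not name the amino acid change, the species of the IDH1 insert, the age of the mice, or whether each array stood for 1 mouse. HoxA9 was therefore shared by every group, and a difference between groups was a difference on top of it.

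IDH1 is the cytosolic enzyme that turns isocitrate into 2-oxoglutarate. Its leukemia mutants instead reduce 2-oxoglutarate to 2-hydroxyglutarate, which competes with 2-oxoglutarate at dioxygenases such as the TET enzymes and the JmjC histone demethylases. HOXA9 is a homeobox transcription factor that keeps myeloid progenitors dividing and slows their maturation. A maturing neutrophil fills its granules in order: azurophil granules at the promyelocyte stage, then specific granules, then gelatinase granules, and last the receptors and cytosolic proteins of the mature cell.

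The cells expressed genes of granulocyte and monocyte precursors, and which cell types were present was not tested. Mpo, myeloperoxidase, read 13.31, 13.28 and 13.33 on the CTL arrays and 12.69, 12.64 and 12.73 on the IDH1mut arrays, on the deposited log2 scale where 1 unit is a doubling. Itgam, the integrin chain CD11b, read 9.81, 9.77 and 9.81 in CTL and 10.28, 10.36 and 10.17 in IDH1mut, and Cd34 lay near 9 in both groups. Ptprc, which encodes the leukocyte antigen CD45, read low for this probe set, between 5.94 and 6.95 over both groups. Mouse Idh1 did not pass the test (-0.03 ± 0.11, SE; adjusted p = 0.888), and Hoxa9 did not either (-0.39 ± 0.14; adjusted p = 0.0809); whether these probe sets detect the inserted genes was not tested. Arrays correlated at 0.9948 to 0.9967 within CTL, 0.9932 to 0.9944 within IDH1mut and 0.9823 to 0.9854 between them, as a description across genes.

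A gene is said to have risen, fallen or changed where its adjusted p in the limma fit was below 0.05, after Benjamini-Hochberg adjustment over the 17731 genes. By that rule 3663 genes, 20.7% of those tested, changed: 1784 (10.1%) rose and 1879 (10.6%) fell. The number depended on a single library, being 2370 without CTL replicate 1; falls numbered 1108 without CTL replicate 1 and 1225 without CTL replicate 3. With each of the 6 arrays left out in turn, 2060 genes, 1112 up and 948 down, kept their call in every fit. Changes were spread unevenly over expression levels. Among genes in the lowest quartile of means 2.3% changed, in the highest 40%, and among the 8856 genes with a mean above the array median 35.1% did, 17% up and 18.1% down. Those last shares are the nearer background for gene lists whose members are mostly well expressed. Large changes leaned upward, since 299 genes (1.69%) rose and 114 (0.643%) fell at least 2-fold.

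**Figure D1:**
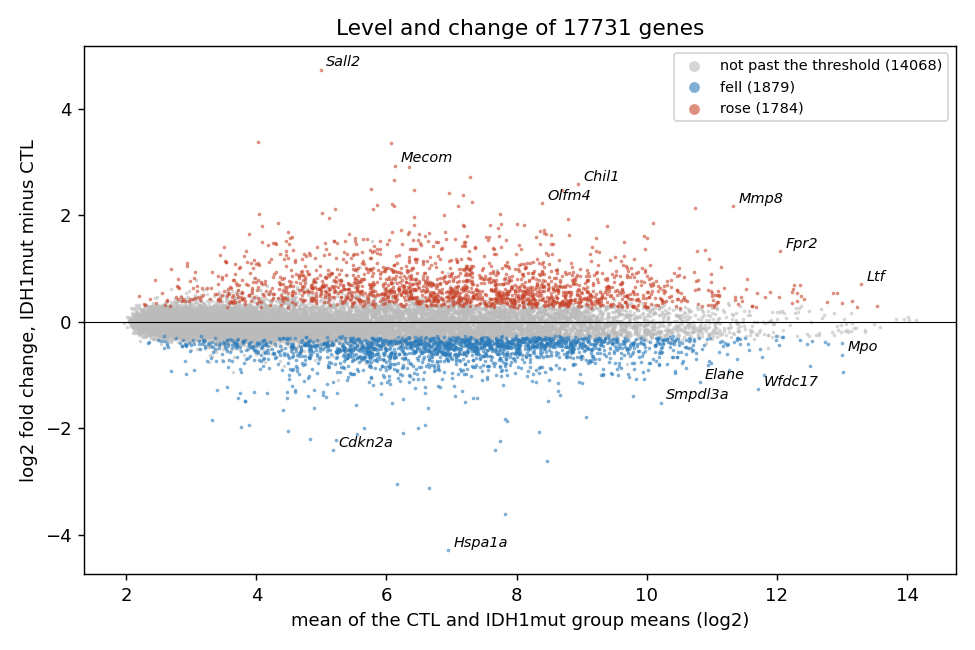
Each point is 1 of 17731 genes, placed by the mean of the CTL and IDH1mut group means (log2, x axis) and the log2 fold change of IDH1mut minus CTL (y axis), and coloured by whether it rose (1784), fell (1879) or did not pass (14068). Sall2 stands highest at 4.73 and Hspa1a lowest at -4.29. At the right edge Camp and Ngp lie close to 0, while Ltf, also abundant, lies above 0 and Mpo below it.

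Sall2, a zinc finger transcription factor, had the largest rise. It read 2.75, 2.63 and 2.49 on the CTL arrays, 2.76, 2.58 and 2.94 on the IDH1wt arrays and 7.76, 7.48 and 6.81 on the IDH1mut arrays. The IDH1wt arrays thus lay with CTL, and the IDH1mut arrays stood more than 3 units above both; the difference from IDH1wt was 4.59 ± 0.20 (limma adjusted p = 6.96e-07). Mecom, which encodes EVI1, a transcription factor of blood stem cells, read 4.97, 4.66 and 4.38 in CTL, 4.51, 4.17 and 4.86 in IDH1wt and 7.70, 7.63 and 7.46 in IDH1mut. Again only the mutant arrays stood apart, by 3.08 ± 0.18 from IDH1wt (adjusted p = 5.89e-06). Chil1, a chitinase-like protein of neutrophil granules, read 7.56, 7.76 and 7.64 in CTL and 10.16, 10.40 and 10.13 in IDH1mut, and differed by 2.33 ± 0.10 from IDH1wt. Ovgp1, of the same protein family, went from 4.90, 4.55 and 4.94 in CTL to 7.38, 7.38 and 7.59 in IDH1mut. In each of these 4 genes the IDH1mut arrays overlapped neither of the other groups. Over all genes, the arrays of IDH1mut and CTL did not overlap for 37.8%.

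For other large rises the IDH1wt arrays lay above CTL too. Bex1, an X-linked adaptor gene best known in neurons, read 2.03, 2.57 and 2.43 in CTL but 6.61, 4.87 and 6.09 in IDH1wt and 4.50, 6.88 and 5.77 in IDH1mut, so both IDH1 groups lay above CTL and overlapped each other. Its difference between mutant and wild type was -0.14 ± 0.53 (adjusted p = 0.908), and IDH1mut replicate 1 lay well below the other mutant arrays. Lrmda, a leucine-rich repeat gene of melanocyte differentiation, was likewise high in IDH1wt (8.32, 8.10 and 8.29) and IDH1mut (7.82, 8.10 and 7.35) against 4.18, 4.45 and 4.56 in CTL. The peptide transporter gene Slc15a2 read 6.69, 7.50 and 7.21 in IDH1wt and 7.88, 7.70 and 7.83 in IDH1mut, against 4.44, 5.57 and 4.70 in CTL. Its IDH1wt arrays all lay below the lowest mutant array, by 0.67 ± 0.26 on average, which did not pass (adjusted p = 0.125). Erdr1, an erythroid differentiation regulator, rose by 2.02 ± 0.15 with a difference from IDH1wt of -0.39 ± 0.15 (adjusted p = 0.111). A p that misses the threshold does not show that the IDH1 groups were alike in these genes.

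Socs2 and Id2 complete the regulators among the 12 largest rises. SOCS2 damps signalling from growth hormone and cytokine receptors, and its gene read 5.12, 5.09 and 5.31 in CTL, 5.98, 4.61 and 5.84 in IDH1wt and 6.75, 8.20 and 8.03 in IDH1mut. IDH1mut replicate 1 was the lowest of its group, yet above every other array. ID2 blocks basic helix-loop-helix factors, and its gene went from 5.92, 5.79 and 6.26 in CTL to 8.27, 8.33 and 8.52 in IDH1mut, 1.91 ± 0.21 above IDH1wt. The 2 nearest measured genes on each side of Id2 also rose: Mboat2 by 0.31, Kidins220 by 0.79, the predicted gene Gm36723 by 1.66 and Rnf144a by 0.84 on the log2 scale. The call of Mboat2 was the weakest (adjusted p = 0.0391); the call was lost without CTL replicate 1 or 2 or IDH1mut replicate 1, 2 or 3 (adjusted p up to 0.138). Aldh1a1, a retinaldehyde dehydrogenase found in stem cells, read 8.16, 8.32 and 8.02 in IDH1mut and 5.64, 5.90 and 5.73 in CTL, and its neighbours Anxa1 (1.25) and Aldh1a7 (1.51) rose with it; Aldh1a7 is a close paralog, so their probe sets may share signal. By contrast, none of the 4 genes around Sall2 passed, and around Mecom only Rpl22l1 did, which fell by 0.52.

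**Figure D2:**
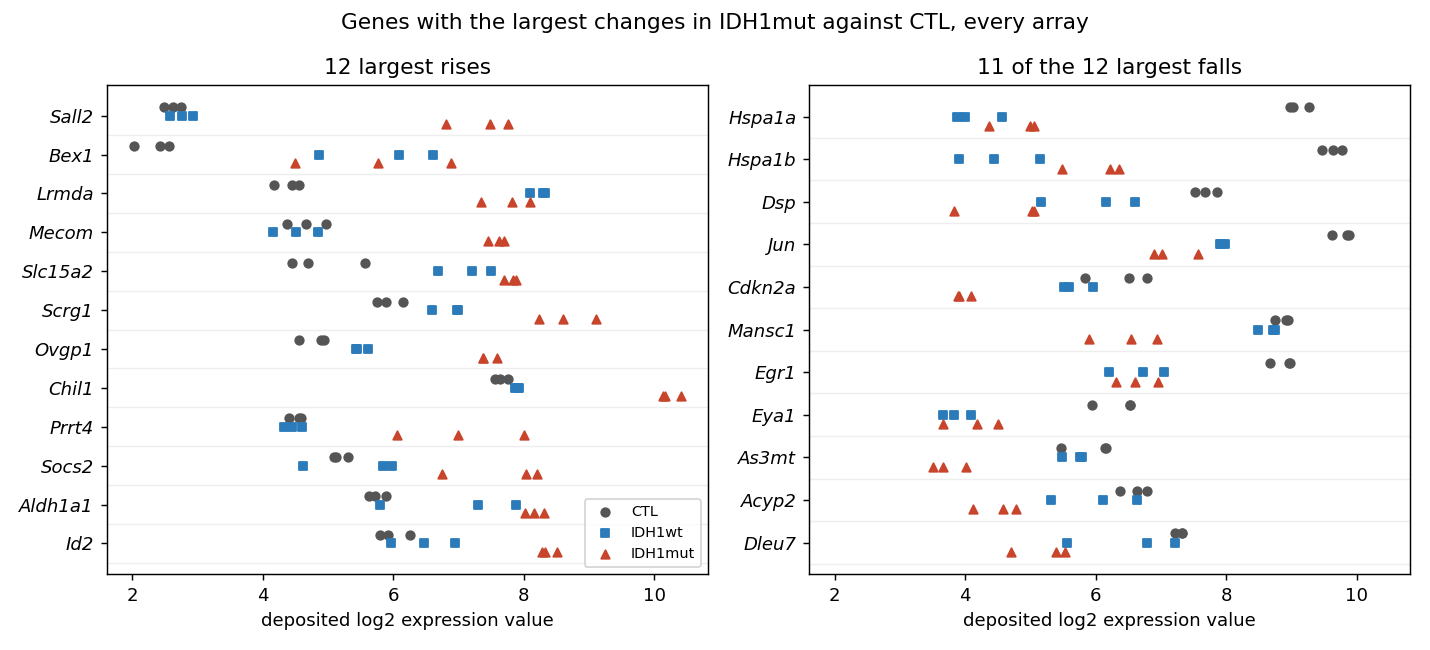
Deposited log2 values (x axis) of the 12 genes with the largest rises and 11 of the 12 with the largest falls in IDH1mut against CTL, 1 point an array, with circles for CTL, squares for IDH1wt and triangles for IDH1mut. IDH1wt lies with CTL for Sall2, Mecom, Chil1 and Mansc1 and with IDH1mut for Bex1, Lrmda, Eya1 and Egr1.

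Other large rises were of genes with varied roles. Fmnl2, a formin that builds actin filaments, read 6.03, 6.35 and 6.17 in CTL and 8.37, 8.50 and 8.45 in IDH1mut. The dynein heavy chain gene Dnah6 read 4.22, 4.26 and 3.98 in CTL and 6.25, 6.40 and 6.19 in IDH1mut. Both stood above IDH1wt as well, by 2.06 and 2.03. Sfmbt2, a Polycomb-type MBT domain gene, went from 4.72, 4.79 and 4.74 in CTL to 6.97, 6.97 and 6.89 in IDH1mut, with IDH1wt in between at 6.07, 6.07 and 5.91. Arg2, mitochondrial arginase, rose by 1.92 ± 0.19, and Ccl6, a chemokine of myeloid cells, by 1.86 ± 0.18. Kel, Ermap and Rhag, which encode red cell membrane proteins, rose by 2.17, 1.82 and 1.81. Gas5, a small nucleolar RNA host gene, rose by 1.81 ± 0.16. The sialyltransferase genes St3gal5 and St3gal6 rose by 1.82 and 2.13, and the cotransporter gene Slc12a2 by 2.01 ± 0.25, with IDH1mut replicate 3 (8.64) above the other mutant arrays.

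The falls split in the same manner. Mansc1, a membrane protein gene, read 8.91, 8.75 and 8.95 in CTL and 8.74, 8.49 and 8.71 in IDH1wt but 5.90, 6.54 and 6.93 in IDH1mut, -2.19 ± 0.20 against IDH1wt (adjusted p = 0.000165). As3mt, arsenite methyltransferase, showed the same order, with a difference from IDH1wt of -1.95 ± 0.19. Cdkn2a, the locus of p16Ink4a and p19Arf, read 6.51, 5.83 and 6.78 in CTL, 5.96, 5.60 and 5.52 in IDH1wt and 4.10, 3.89 and 3.91 in IDH1mut. All 3 mutant arrays lay below the lowest array of either other group, and the difference from IDH1wt was -1.73 ± 0.21 (adjusted p = 0.000506). The neighbouring Cdkn2b (0.05 ± 0.11; adjusted p = 0.795) and Mtap (-0.01 ± 0.11; adjusted p = 0.947) did not pass.

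For another set of falls the IDH1wt arrays were low too. Egr1, an immediate early transcription factor, read 8.97, 8.66 and 8.96 in CTL, 6.21, 7.04 and 6.72 in IDH1wt and 6.96, 6.32 and 6.60 in IDH1mut, and only CTL stood apart. Fosb, an AP-1 subunit, read 5.83, 4.99 and 5.73 in CTL, 2.93, 3.53 and 2.94 in IDH1wt and 3.48, 3.47 and 3.43 in IDH1mut. Eya1, a phosphatase and transcriptional coactivator, read 6.53, 5.95 and 6.53 in CTL, 3.67, 4.10 and 3.83 in IDH1wt and 3.66, 4.50 and 4.17 in IDH1mut. Pde4d, a cyclic AMP phosphodiesterase, and Ptprg, a receptor phosphatase, fell by 1.93 and 1.84, and stood -0.05 and 0.15 from IDH1wt. None of these 5 passed between the IDH1 groups (adjusted p from 0.359 for Fosb to 0.944 for Egr1). Dsp, which encodes the desmosome protein desmoplakin, lay lower in IDH1wt and lower again in IDH1mut, at 7.68, 7.52 and 7.86 in CTL, 6.60, 5.16 and 6.15 in IDH1wt and 3.84, 5.06 and 5.02 in IDH1mut. Jun, another AP-1 subunit, followed the same order, at 9.85, 9.61 and 9.88 in CTL, 7.99, 7.91 and 7.91 in IDH1wt and 7.57, 7.01 and 6.90 in IDH1mut. The IDH1 groups differed by -0.78 ± 0.16 (adjusted p = 0.00796).

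Among the next falls, Prg2, the major basic protein of eosinophil granules, read 9.68, 8.78 and 9.66 in CTL and 7.20, 7.21 and 7.53 in IDH1mut. Hnmt, which inactivates histamine, went from 7.32, 7.59 and 7.54 in CTL to 5.25, 5.80 and 5.43 in IDH1mut and was -1.87 against IDH1wt. Smpdl3a, a phosphodiesterase related to acid sphingomyelinase, was the most abundant of them, at 11.07, 10.84 and 11.01 in CTL, 11.14, 10.89 and 11.02 in IDH1wt and 9.40, 9.03 and 9.92 in IDH1mut. Gpx3, the plasma glutathione peroxidase, fell by 1.86, Gpnmb, a membrane glycoprotein of macrophages, by 1.79, the lipopolysaccharide co-receptor Cd14 by 1.48, and the clock receptor Rora by 1.43 on the log2 scale.

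Neutrophil genes split by the stage at which their products are made. Of 15 measured azurophil genes 8 fell and 2 rose, with a median log2 fold change of -0.57 (-0.04 over all genes, of which 10.1% rose and 10.6% fell). Among genes above the array median, where 14 of the 15 lay, 17% rose and 18.1% fell. Those shares are also the nearer background for the 3 later lists. Of 18 specific granule genes 9 rose and 0 fell (median 0.29, and 0 fell at an unadjusted limma p below 0.05 too), of 15 gelatinase granule genes 7 rose and 1 fell (0.37), and of 27 late surface and cytosol genes 21 rose and 2 fell (0.61). The 8 azurophil falls held with any 1 array left out, as did 8, 7 and 18 of the rises in the 3 later lists. The azurophil rises numbered 0 without CTL replicate 1 or 3 or IDH1mut replicate 2 and 1 without CTL replicate 2 or IDH1mut replicate 1 or 3, and the late falls 1 without CTL replicate 1 or 3 or IDH1mut replicate 2 or 3. In bulk RNA, fewer cells of a stage and less RNA per cell cannot be told apart. These lists were assembled with earlier results of these data known, and the rise of late and fall of early genes is not independent support for itself.

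The azurophil falls covered the serine proteases of the granule. Cst7, cystatin F, an inhibitor of cathepsins, fell most, from 10.53, 10.38 and 10.55 in CTL to 9.0, 9.15 and 9.14 in IDH1mut (-1.39 ± 0.11; adjusted p = 2.93e-05). Elane, neutrophil elastase, went from 11.51, 11.19 and 11.45 in CTL to 10.24, 10.36 and 10.13 in IDH1mut. Prtn3, proteinase 3, went from 12.96, 12.87 and 12.93 in CTL to 12.16, 12.04 and 12.08 in IDH1mut. In all 3 genes every IDH1mut array lay below every CTL array. Ctsg, cathepsin G, read 13.49 on each CTL array and 12.61, 12.36 and 12.66 on the IDH1mut arrays. Ms4a3, a membrane protein of granulocyte and monocyte progenitors, fell by 1.0, Nkg7 fell by 1.03, Mpo by 0.62 and the granule GTPase gene Rab44 by 0.57 on the log2 scale, each also lower than in IDH1wt. Lyz2 (0.30 ± 0.08) and Lyz1 (0.38 ± 0.12), the lysozymes, rose. The call of Lyz2 was lost without CTL replicate 1 or 3 or IDH1mut replicate 1 or 2 (adjusted p up to 0.0971). The call of Lyz1 was lost without CTL replicate 1, 2 or 3 or IDH1mut replicate 2 or 3 (adjusted p up to 0.154).

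After Chil1, the largest rises among specific granule genes were in moderately expressed members. Olfm4, olfactomedin 4, present in a subset of neutrophils, went from 7.17, 7.40 and 7.25 in CTL to 9.30, 9.76 and 9.43 in IDH1mut, with IDH1wt at 7.82, 8.38 and 8.12. Orm1, an acute phase glycoprotein, read 6.21, 6.03 and 6.59 in CTL and 7.79, 8.13 and 7.60 in IDH1mut, a rise of 1.56 ± 0.18. Ceacam10, a secreted member of the carcinoembryonic antigen family, rose by 1.13 ± 0.13. Ltf, lactoferrin, read 12.89, 13.08 and 12.86 in CTL and 13.59, 13.70 and 13.65 in IDH1mut, a rise of 0.70 ± 0.09 in one of the most abundant transcripts. Cd177 rose by 0.57 ± 0.09 and Chil3, a second chitinase-like protein, by 0.54 ± 0.09. Camp, the cathelicidin gene, and Ngp did not pass (0.09 ± 0.08 and 0.04 ± 0.08); with S100a8 and S100a9 they read 13.90 to 14.17 over both groups, at the top of the arrays' range, and saturation there was not tested.

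The gelatinase granule list was led by Mmp8. It read 10.07, 10.61 and 10.05 in CTL, 10.94, 10.94 and 10.79 in IDH1wt and 12.44, 12.46 and 12.35 in IDH1mut. Its product, neutrophil collagenase, is usually assigned to specific granules, so the 7 rises of this list include a gene of that earlier stage. Adam8, a membrane metalloprotease, read 8.83, 9.12 and 8.76 in CTL and 10.37, 10.43 and 10.39 in IDH1mut. Slc11a1, the NRAMP1 metal transporter of phagosomes, rose by 1.36 ± 0.11, Vnn3, a vanin, by 1.37 ± 0.16, Padi4, which citrullinates histones, by 0.86 ± 0.09, and Mmp9, gelatinase B itself, by 0.69 ± 0.11. Qsox1, a sulfhydryl oxidase, went the other way, from 8.86, 8.84 and 8.79 in CTL to 7.96, 8.11 and 7.53 in IDH1mut.

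**Figure D3:**
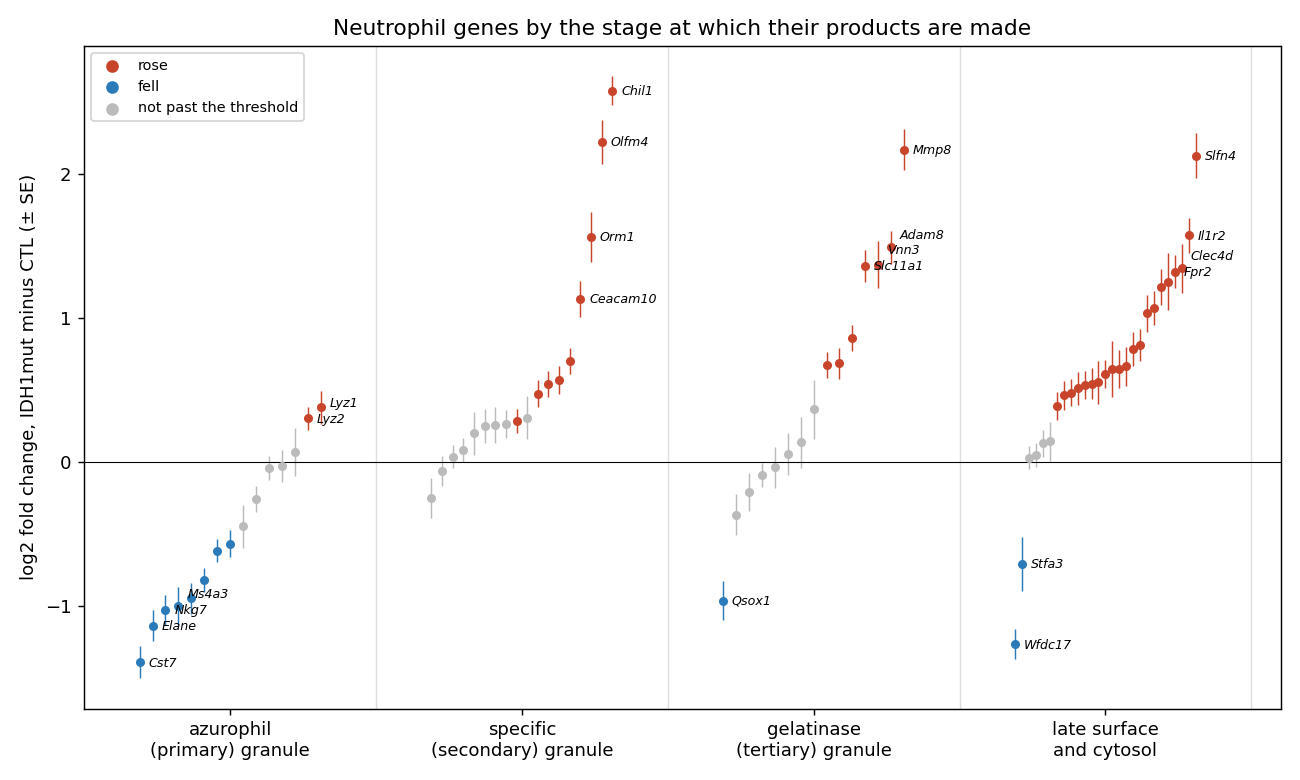
Log2 fold change of IDH1mut minus CTL (y axis, ± SE) for each measured member of 4 neutrophil lists, ordered by value within a list and coloured by whether it rose, fell or did not pass. Azurophil genes lie mostly below 0 (8 of 15 fell) and late surface and cytosol genes mostly above it (21 of 27 rose), with Wfdc17 and Stfa3 as the 2 late genes that fell.

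Late genes included the receptors by which neutrophils sense their surroundings. Fpr2, a formyl peptide receptor, read 11.22, 11.64 and 11.30 in CTL and 12.69, 12.80 and 12.64 in IDH1mut, without overlap. Il1r2, the interleukin 1 decoy receptor, read 8.29, 8.58 and 8.43 in CTL and 10.23, 9.98 and 9.81 in IDH1mut. Slfn4, a Schlafen gene of myeloid cells, read 9.48, 10.05 and 9.50 in CTL and 11.65, 11.76 and 12.01 in IDH1mut. In all 3 genes the IDH1mut arrays were also above IDH1wt, by 0.97, 1.22 and 1.31. Csf3r, the receptor for the granulocyte growth factor, went from 10.35, 10.55 and 10.29 in CTL to 11.37, 11.07 and 11.10 in IDH1mut (0.78 ± 0.12; adjusted p = 0.000972). Wfdc17, a whey acidic protein gene, fell from 12.23, 12.56 and 12.23 in CTL to 11.09, 11.08 and 11.05 in IDH1mut, its mutant arrays nearly identical. Stfa3, a stefin of neutrophils, also fell (-0.71 ± 0.19), and stood far below IDH1wt, where it read 10.90, 11.36 and 11.05 (-3.70 ± 0.19; adjusted p = 2.11e-06). The call of Stfa3 was lost without CTL replicate 1 or 3 or IDH1mut replicate 2 or 3 (adjusted p up to 0.0778). Stefin genes are close copies of each other, so the values of single members are uncertain.

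Innate receptors rose far more often than they fell. Of 43 measured pattern, lectin and Fc receptor genes 25 rose and 1, Cd14, fell (median 0.49). Among genes above the array median, where 36 of the 43 lay, 17% rose and 18.1% fell. Against IDH1wt 17 of the 43 were higher and 3 lower, with 6.54% of all genes higher and 6.78% lower. The number of falls against CTL was 2 without CTL replicate 2 or IDH1mut replicate 2 and 3 without IDH1mut replicate 1. Clec4d, a C-type lectin for mycobacterial glycolipids, read 10.13, 10.43 and 10.12 in CTL and 11.98, 11.57 and 11.17 in IDH1mut, with IDH1mut replicate 1 the highest. Clec5a, a lectin that signals through DAP12, read 7.77, 7.95 and 7.86 in CTL and 9.07, 9.21 and 9.06 in IDH1mut. Tlr13, a sensor of bacterial ribosomal RNA, rose by 1.13 ± 0.13, Tlr6 by 1.09 ± 0.18 and Tlr2 by 0.71 ± 0.11. Fcgr4, a receptor for immunoglobulin G, rose by 1.01 ± 0.12, Cd33 by 0.91 ± 0.09, and Tyrobp, the DAP12 adaptor, by 0.39 ± 0.09. Msr1, the macrophage scavenger receptor, rose by 1.18 ± 0.28, with IDH1mut replicate 1 (6.17) well above the other mutant arrays.

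Myeloid transcription factors did not move in 1 direction: 8 of 51 rose and 11 fell. The 37.3% that changed was near the 35.1% of genes above the array median. Cebpa, which drives granulocyte commitment, went from 9.12, 9.07 and 9.06 in CTL to 8.59, 8.35 and 8.47 in IDH1mut (-0.61 ± 0.09; adjusted p = 0.00103). Irf8, which favours monocytes, went from 10.49, 10.37 and 10.44 in CTL to 10.03, 9.24 and 9.73 in IDH1mut, and Runx3 fell by 0.57. Sox4, a factor of immature progenitors, read 10.88, 11.04 and 10.86 in CTL and 9.69, 10.34 and 10.40 in IDH1mut, and Tcf4 fell by 0.85 on the log2 scale. Ets2 (0.91 ± 0.14) and Nfe2 (0.51 ± 0.09) rose, besides Id2, as did Tal1, a factor of stem and red cells (0.78 ± 0.13). Gfi1, a repressor needed for neutrophil maturation, fell by 0.48 and did not differ beyond the threshold from IDH1wt (-0.05 ± 0.13; adjusted p = 0.853). The call of Gfi1 was lost without CTL replicate 1 or 3 or IDH1mut replicate 1 (adjusted p up to 0.0789). Spi1, PU.1, read 9.95 to 10.03 in CTL and 10.16 to 10.37 in IDH1mut, without overlap, but did not pass (0.26 ± 0.09; adjusted p = 0.0686). The number of falls was 7 without CTL replicate 1 or IDH1mut replicate 2.

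Cytokine receptors rose in 10 of 34 measured genes and fell in 7, 50% in all, beside 35.1% of genes above the array median. Beside Csf3r and Il1r2, Il18rap rose by 0.87 ± 0.11, Epor, the erythropoietin receptor, by 0.84 ± 0.17, and Tgfbr2 by 0.73 ± 0.10. Il3ra, the interleukin 3 receptor chain, fell from 7.29, 7.03 and 7.32 in CTL to 6.63, 6.15 and 6.30 in IDH1mut, Il6st, the shared chain gp130, by 0.71, and Csf2rb2 by 0.55. Kit, the stem cell factor receptor, read 5.29, 5.22 and 5.26 in CTL and 4.48, 4.92 and 4.69 in IDH1mut (-0.56 ± 0.12). Flt3, the other progenitor kinase, read 6.30, 6.60 and 6.13 in CTL and 6.75, 6.93 and 7.50 in IDH1mut (0.72 ± 0.18; adjusted p = 0.0149), so the kinases moved in opposite directions. The call of Flt3 was lost without CTL replicate 1 or 3 (adjusted p up to 0.0637).

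Shares of downstream signalling genes that changed, 41.4% for JAK, STAT and SOCS genes, 37.2% for RAS and MAPK genes and 34.5% for PI3K genes, were near the 35.1% of genes above the array median. Of 29 JAK, STAT and SOCS genes 8 rose and 4 fell, with Jak2 (0.57 ± 0.10) up and Jak3 (-0.80 ± 0.09) and Socs7 (-0.68 ± 0.11) down. The rises were 5 without CTL replicate 1, and the falls 2 without CTL replicate 1 or 3. Of 43 RAS and MAPK genes 12 rose and 4 fell: the kinase gene Map3k8 rose by 1.0 ± 0.10, Braf by 0.70 ± 0.14 and the ERK phosphatase gene Dusp6 by 0.85 ± 0.10, and Spry2, a feedback inhibitor, fell by 1.07. Those rises were 7 without CTL replicate 1 or IDH1mut replicate 2. In the PI3K list 6 of 29 rose and 4 fell. Deptor, an inhibitor of mTOR, had the largest change of that list, from 7.42, 7.35 and 7.42 in CTL to 6.60, 5.98 and 6.36 in IDH1mut, and Pik3r6, a subunit of the neutrophil PI3K gamma, rose by 0.80 ± 0.09. The PI3K falls were 2 without CTL replicate 1 or 3.

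Partner genes of HOXA9 and other genes of leukemia stem cells rose in 9 of 42 and fell in 8. The share that changed was 40.5%, beside 35.1% of genes above the array median. For the lists that follow it was 27% for chemokines, 43.2% for adhesion, 32.3% for TGF-beta and 37.1% for WNT genes. Meis1, a homeobox cofactor that binds DNA with HOXA9, read 3.53, 3.30 and 3.59 in CTL, 3.37, 3.42 and 3.69 in IDH1wt and 4.55, 4.26 and 4.92 in IDH1mut, and every mutant array lay above both other groups. Pbx3, another HOXA9 cofactor, fell by 0.92 on the log2 scale, whereas Pbx2 rose by 0.49 ± 0.11 and Igf1r, a growth factor receptor, by 0.93 ± 0.13. The falls of this list were 5 without IDH1mut replicate 2. Among chemokines and their receptors 8 of 37 rose and 2 fell. Cxcr2, by which neutrophils leave the marrow, read 8.32, 8.54 and 8.12 in CTL and 9.55, 9.27 and 9.26 in IDH1mut, and Ccr1 rose by 0.97 ± 0.11. Ccl9 fell by 0.93, so that the related Ccl6 and Ccl9 moved in opposite directions. The chemokine falls were 1 without CTL replicate 1 or 3 or IDH1mut replicate 2. Adhesion genes rose in 9 of 44 and fell in 10. Alcam rose by 1.15 ± 0.11, the integrin chains Itgb2 and Itgam by 0.49 ± 0.08 and 0.48 ± 0.09, while Vcam1 (-0.99 ± 0.12), Pecam1 (-0.66 ± 0.11) and Itgb5 (-1.11 ± 0.13) fell. The adhesion falls were 6 without CTL replicate 1. In the TGF-beta list 6 of 31 rose and 4 fell: Skil, a SMAD corepressor, rose by 0.93 ± 0.11, and the ligand gene Tgfb1 and Smad1 fell by 0.78 and 0.83. The TGF-beta falls were 2 without CTL replicate 3 or IDH1mut replicate 3. WNT genes rose in 6 of 35, Gsk3b (0.78 ± 0.15) and Dvl1 (0.78 ± 0.13) among them, and fell in 7. The WNT falls were 3 without CTL replicate 2 or 3 and 4 without CTL replicate 1 or IDH1mut replicate 3.

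Interferon genes rose more often than they fell. Of 46 effectors 21 rose and 4 fell (median 0.28), and of 23 sensors and factors 12 rose and 2 fell (median 0.36). Among genes above the array median 17% rose and 18.1% fell. Against IDH1wt 15 effectors were higher and 5 lower (median 0.10). Sensors and factors were higher than in IDH1wt in 5 of 23 and lower in 1 (median 0.06), with 6.54% of all genes higher and 6.78% lower. Ifit3, which binds foreign RNA in a complex with Ifit1, read 6.44, 6.51 and 6.33 in CTL, 7.13, 7.17 and 7.19 in IDH1wt and 8.36, 7.97 and 7.78 in IDH1mut. Ifit1bl1, a close copy of Ifit1, read 5.53, 5.56 and 5.44 in CTL and 7.53, 7.31 and 7.17 in IDH1mut, a rise of 1.82 ± 0.10. Rsad2, viperin, read 9.29, 9.41 and 9.17 in CTL and 10.82, 10.62 and 10.54 in IDH1mut. In each of these 3 genes the IDH1mut arrays lay above both other groups. Slfn1 rose by 1.47 ± 0.12, Ifit1 by 1.17 ± 0.11, Oasl2 by 1.13 ± 0.13 and Cmpk2, which lies beside Rsad2 in the genome, by 0.84 ± 0.09. Of the factors, Irf7 rose by 0.57 ± 0.13, Usp18, which limits receptor signalling, by 0.64 ± 0.15, and Adar, an RNA editing enzyme, by 0.81 ± 0.14. The falls among sensors and factors were 0 without CTL replicate 1 or IDH1mut replicate 2, 1 without CTL replicate 2 or 3 or IDH1mut replicate 3 and 4 without IDH1mut replicate 1.

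4 effectors fell, all of them with any 1 array left out. Slfn9, a Schlafen gene, read 7.47, 7.43 and 7.42 in CTL and 6.59, 6.30 and 5.75 in IDH1mut. Bst2, tetherin, which holds budding viruses at the membrane, read 8.22, 8.14 and 8.17 in CTL and 7.54, 7.21 and 6.80 in IDH1mut. Gbp3, a guanylate-binding protein, read 9.45, 9.35 and 9.65 in CTL and 8.86, 8.47 and 8.83 in IDH1mut, and Ifitm2 fell by 0.69 on the log2 scale. The mutant arrays lay below every CTL array in each, and IDH1mut replicate 3 was the lowest for Slfn9, Bst2 and Ifitm2.

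Promoters of effectors that rose and of effectors that fell are printed because both kinds held the same letters. The search took GAAANNGAAA or its reverse complement TTTCNNTTTC, the core of the interferon-stimulated response element, in the RefSeq promoter table (GRCm38.p6; 300 bases a gene start, running from upstream to just past the start, in the gene's direction). Both strands were searched, matches are in capitals, and overlapping matches run together. Ifit3 at chr19:34583279-34583578 (plus strand), Ifit1 at chr19:34640639-34640938 (plus) and Rsad2 at chr12:26456403-26456702 (minus) rose, and Bst2 at chr8:71537423-71537722 (minus) and Gbp3 at chr3:142559794-142560093 (plus) fell.
Ifit3: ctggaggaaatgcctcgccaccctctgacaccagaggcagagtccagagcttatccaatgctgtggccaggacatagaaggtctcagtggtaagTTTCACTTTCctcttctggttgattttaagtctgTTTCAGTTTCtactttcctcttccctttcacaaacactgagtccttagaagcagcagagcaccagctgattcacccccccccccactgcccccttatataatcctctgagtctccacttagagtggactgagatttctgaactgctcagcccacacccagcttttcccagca
Ifit1: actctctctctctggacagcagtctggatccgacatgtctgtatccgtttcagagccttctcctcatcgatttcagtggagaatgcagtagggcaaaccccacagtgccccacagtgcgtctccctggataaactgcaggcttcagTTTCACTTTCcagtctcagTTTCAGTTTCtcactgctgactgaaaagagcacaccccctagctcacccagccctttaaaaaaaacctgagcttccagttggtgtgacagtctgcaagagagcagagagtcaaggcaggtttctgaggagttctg
Rsad2: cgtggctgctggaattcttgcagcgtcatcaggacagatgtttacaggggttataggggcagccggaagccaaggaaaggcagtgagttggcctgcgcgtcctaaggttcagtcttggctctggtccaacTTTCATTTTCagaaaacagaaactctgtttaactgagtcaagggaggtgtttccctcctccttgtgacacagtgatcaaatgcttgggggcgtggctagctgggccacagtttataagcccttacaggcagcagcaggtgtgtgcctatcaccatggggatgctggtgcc
Bst2: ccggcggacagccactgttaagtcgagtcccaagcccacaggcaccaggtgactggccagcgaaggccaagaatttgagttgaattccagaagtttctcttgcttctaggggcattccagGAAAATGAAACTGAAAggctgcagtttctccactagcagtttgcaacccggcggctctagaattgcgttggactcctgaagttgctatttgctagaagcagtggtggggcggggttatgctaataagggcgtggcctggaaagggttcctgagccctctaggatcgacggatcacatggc
Gbp3: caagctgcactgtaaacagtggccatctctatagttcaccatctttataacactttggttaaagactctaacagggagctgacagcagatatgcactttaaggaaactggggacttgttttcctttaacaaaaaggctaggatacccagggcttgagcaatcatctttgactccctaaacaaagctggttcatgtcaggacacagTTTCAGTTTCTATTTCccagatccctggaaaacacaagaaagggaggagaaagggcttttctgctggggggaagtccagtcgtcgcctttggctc
The Ifit3, Ifit1, Bst2 and Gbp3 windows held 2 matches each and the Rsad2 window 1. Of 37 effectors with a listed promoter, 19 held the motif (51.4%), against 3.99% of 27025 genes with a promoter and 3.63% of 14033 genes tested. A gene was counted where any of its listed promoters held it; Gbp3 has 2, of which only the window printed did. The motif was present in 7 of 18 effectors that rose, 4 of 4 that fell and 8 of 15 that did not pass. Over all genes it was present in 4.08% of those that rose, 4.03% of those that fell and 3.52% of the others. A match is a description of the letters in this window and shows no binding.

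Genes of MHC class I presentation, some of which interferon also induces, fell more often than they rose. Of 18 measured genes 7 fell and 1 rose (median -0.20), and the 7 falls held with any 1 array left out. The class I chain genes H2-K1 and H2-D1 did not pass, nor did B2m, Tap1, Tapbp, Nlrc5 and Psmb9. Among genes above the array median, where 17 of the 18 lay, 18.1% fell and 17% rose. Tap2, a subunit of the peptide transporter, read 9.95, 9.53 and 9.98 in CTL and 9.0, 8.90 and 8.57 in IDH1mut (-0.99 ± 0.14; adjusted p = 0.000646). Pdia3, which assists loading of the class I chain, went from 11.29, 11.38 and 11.35 in CTL to 10.65, 10.50 and 10.45 in IDH1mut. The immunoproteasome subunit gene Psmb10 went from 10.38, 10.24 and 10.25 in CTL to 9.69, 9.55 and 9.40 in IDH1mut. Tapbpl fell by 0.60 and Calr, calreticulin, by 0.52 on the log2 scale. H2-T24, a nonclassical class I gene, was the 1 that rose (0.48 ± 0.15), with overlapping arrays. The call of H2-T24 was lost without CTL replicate 1, 2 or 3 or IDH1mut replicate 1 or 2 (adjusted p up to 0.151).

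The inducible HSP70 genes had the 2 largest falls of the comparison. Hspa1a read 9.03, 8.98 and 9.26 in CTL, 4.01, 4.56 and 3.88 in IDH1wt and 5.0, 4.36 and 5.06 in IDH1mut. Hspa1b read 9.46, 9.64 and 9.78 in CTL, 3.91, 5.15 and 4.44 in IDH1wt and 6.22, 5.48 and 6.35 in IDH1mut. Both IDH1 groups were far below CTL, with IDH1wt the lower; Hspa1b differed between them by 1.52 ± 0.28 (adjusted p = 0.00572) and Hspa1a did not pass (0.66 ± 0.20; adjusted p = 0.0563). The 2 genes are near-identical copies, so the values of each are uncertain. The rest of the HSF1 chaperone network, 32 genes with these 2, moved both ways: 10 fell in all and 7 rose. That was 53.1% of the 32, beside 35.1% of genes above the array median. Bag3, an HSP70 cochaperone, fell by 0.55 and Stip1 by 0.38, but Dnajb4 rose by 0.81 ± 0.14 and Hsph1, an HSP110, by 0.57 ± 0.13. Rises were 2 without CTL replicate 1 or 2 or IDH1mut replicate 3 and 4 without IDH1mut replicate 1, and falls 5 without CTL replicate 1 and 6 without CTL replicate 2 or 3 or IDH1mut replicate 2 or 3. The heat shock element GAANNTTCNNGAA, or TTCNNGAANNTTC, was found in 5 of the 28 network genes with a listed promoter and in 0.662% of all genes with one, counting a gene where any of its 300-base promoters matched. Neither Hspa1a nor Hspa1b held these letters in the listed window. Elements that depart from this exact pattern or lie outside the window were not searched for.

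Erythroid markers rose in 12 of 14 measured genes and fell in 0, also at an unadjusted limma p below 0.05 (median 1.28). Background shares were 17% up and 18.1% down among genes above the array median, where 11 of the 14 lay. Epb42, a red cell skeleton protein, read 3.48, 3.59 and 4.0 in CTL, 3.31, 5.0 and 4.48 in IDH1wt and 4.93, 5.44 and 5.26 in IDH1mut. Alas2, the first enzyme of heme synthesis in red cells, read 5.84, 6.08 and 5.32 in CTL, 5.85, 6.92 and 6.59 in IDH1wt and 6.60, 7.38 and 7.33 in IDH1mut. The IDH1wt arrays were split for both genes, replicate 1 at or below the CTL level and replicates 2 and 3 above it. Between the IDH1 groups 0 of the 14 markers passed the adjusted limma threshold, while 12 were higher in IDH1mut at an unadjusted p below 0.05. The 12 rises against CTL were 7 without CTL replicate 2. Summed over the 14 members on the linear scale, the list lay at 3200 to 3400 in CTL, 2460 to 7540 in IDH1wt and 7560 to 8700 in IDH1mut. The hemoglobin genes measured, Hba-a1 (3.26 to 3.51 over CTL and IDH1mut) and Hbb-b2 (4.06 to 4.82), read below or near the array medians of 4.65 to 4.72 and did not pass.

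Iron and heme genes rose in 17 of 36 and fell in 2 (median 0.35), and 12 of the rises held with any 1 array left out. The shares among genes above the array median, where 29 of the 36 lay, were 17% up and 18.1% down. Several belong to the erythroid list or to granulocytes, and the part of the erythroid markers in these rises was not tested. Tfrc, the transferrin receptor, read 9.06, 9.35 and 9.23 in CTL and 10.27, 10.45 and 10.43 in IDH1mut. Uros and Ppox, of heme synthesis, rose by 0.95 ± 0.14 and 0.88 ± 0.10, Slc25a37, mitoferrin 1, by 0.88 ± 0.12, and Slc40a1, the iron exporter ferroportin, by 0.84 ± 0.11. Cp, ceruloplasmin, fell from 6.66, 6.37 and 6.69 in CTL to 5.33, 5.44 and 5.57 in IDH1mut, and Alas1, the heme enzyme of other cells, fell by 0.40 on the log2 scale. Alas1 and Alas2 thus moved in opposite directions.

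**Figure D4:**
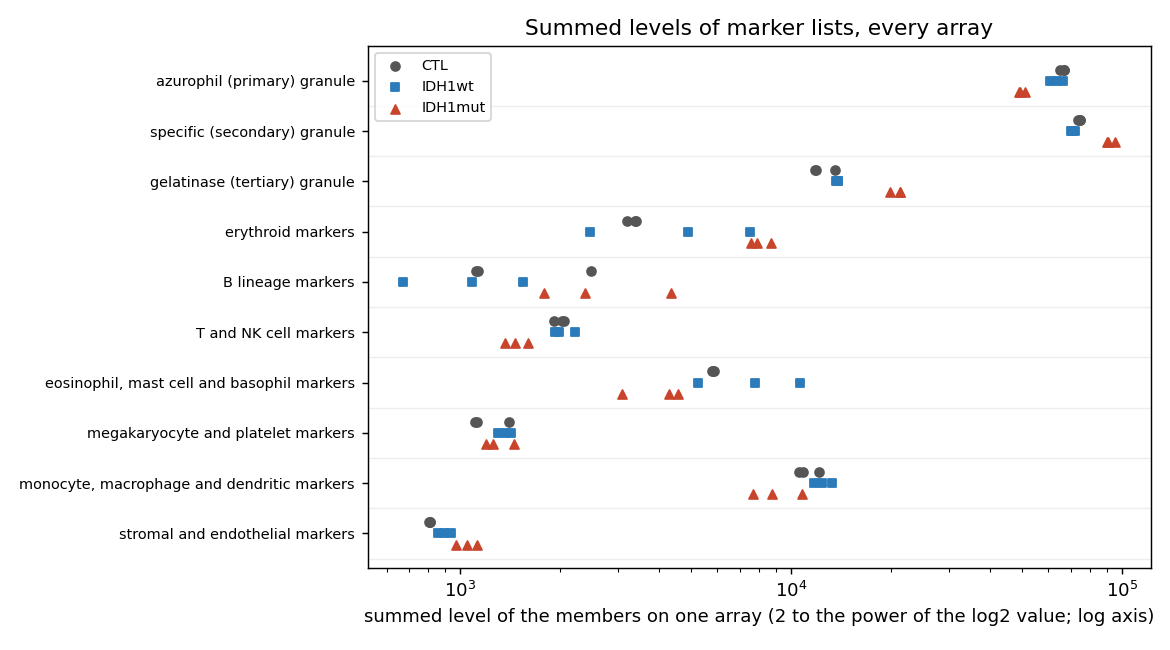
Summed linear level of the members of 10 lists (x axis, log scale) on each of the 9 arrays, with circles for CTL, squares for IDH1wt and triangles for IDH1mut. Azurophil sums are lower on the IDH1mut arrays (49000 to 51100) than on the CTL arrays (65000 to 67000), and erythroid sums are higher.

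Markers of other lineages moved less evenly. Among genes above the array median 35.1% changed, and among all genes 20.7%. The shares were 47.1% for eosinophil, mast cell and basophil markers and 35.7% for monocyte, macrophage and dendritic markers. They were 18.8% for B lineage, 31.8% for T and NK cell and 21.7% for stromal and endothelial markers. Eosinophil, mast cell and basophil markers fell in 6 of 17 and rose in 2, with summed levels of 5780 to 5880 in CTL and 3080 to 4570 in IDH1mut. Prg3 fell by 1.22, Ms4a2, the beta chain of the IgE receptor, by 1.37, and Siglecf by 0.86. Ccr3 and Hdc rose, and other members, among them Il5ra, Fcer1a, Cpa3 and Mcpt8, did not pass. Rises on this list were 1 without IDH1mut replicate 2. Monocyte, macrophage and dendritic markers rose in 5 of 28 and fell in 5, with sums of 10600 to 12100 in CTL and 7680 to 10800 in IDH1mut that overlapped. Their rises were 2 without CTL replicate 1 or 3 and 3 without IDH1mut replicate 2. B lineage markers rose in 3 of 16: Dntt, the terminal transferase of lymphoid precursors, read 5.09, 6.05 and 5.38 in CTL and 7.02, 6.54 and 8.03 in IDH1mut, and with Vpreb1 and Igll1 it was highest on IDH1mut replicate 3 within its group. B lineage sums ran from 1110 to 2480 in CTL and from 1790 to 4330 in IDH1mut, and the rises were 1 without CTL replicate 1 or 3 or IDH1mut replicate 3. T and NK cell markers rose in 5 of 22 and fell in 2, the falls being Cd28 (-0.95 ± 0.15) and Nkg7, and the list median was 0.15. Their linear sums, to which Nkg7, also on the azurophil granule list, adds most, were lower in IDH1mut (1370 to 1610) than in CTL (1920 to 2060), while their mean log2 levels were higher (5.07 to 5.31 against 5.0 to 5.04). T and NK rises were 2 without IDH1mut replicate 2 and 3 without CTL replicate 2 or 3 or IDH1mut replicate 3. Stromal and endothelial markers rose in 4 of 23 and fell in 1, with sums of 805 to 814 in CTL and 975 to 1130 in IDH1mut, the lowest of the marker sums in both groups; their mean log2 levels overlapped (4.20 to 4.38 and 4.35 to 4.40). Stromal rises were 2 without IDH1mut replicate 2, and falls 2 without CTL replicate 2 or IDH1mut replicate 3 and 3 without IDH1mut replicate 1. The part of other cell types in the gene group results was not tested.

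Among genes of enzymes that 2-hydroxyglutarate is known to inhibit, the TET genes did not pass the test. Of the JmjC demethylases 23.1% changed, beside 20.7% of all genes. Among genes above the array median, where 17 of the 26 lay, 35.1% changed. Tet1 read 5.84, 5.75 and 5.67 in CTL and 4.75, 5.17 and 5.73 in IDH1mut, with IDH1mut replicate 3 inside the CTL range, and did not pass (-0.53 ± 0.19; adjusted p = 0.0718). Tet2 (0.04 ± 0.12; adjusted p = 0.868) and Tet3 (-0.06 ± 0.18; adjusted p = 0.869) did not pass either. Dnmt1, the maintenance DNA methyltransferase, read 9.15, 9.10 and 9.05 in CTL and 8.57, 8.66 and 8.67 in IDH1mut and fell by 0.47. Dnmt3a, the de novo enzyme, fell by 0.41 (adjusted p = 0.0357). The call of Dnmt3a was lost without CTL replicate 1 or 2 or IDH1mut replicate 1, 2 or 3 (adjusted p up to 0.123). Zbtb4, a methyl-CpG-binding zinc finger, went from 6.28, 6.30 and 6.30 in CTL to 5.03, 5.35 and 5.12 in IDH1mut, the largest change of the 24 genes of DNA methylation. Of these 24 genes 6 fell and 2 rose, 33.3% in all. Of 26 JmjC demethylases 3 rose and 3 fell: Kdm6a, which removes methyl groups from histone H3 lysine 27, rose by 0.95 ± 0.21, and Kdm7a by 0.73 ± 0.16. The JmjC falls were 1 without CTL replicate 1 or 2.

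Of other chromatin genes, histone methyltransferases, acetyltransferases and deacetylases fell in 14 of 54 and rose in 5. The 35.2% that changed was near the 35.1% of genes above the array median. Hdac8, a class I deacetylase, read 4.92, 4.88 and 5.19 in CTL and 4.30, 4.18 and 3.80 in IDH1mut. Kat2a, the GCN5 acetyltransferase, read 5.84, 5.80 and 5.93 in CTL and 5.14, 5.20 and 5.15 in IDH1mut, and Prmt1, the main arginine methyltransferase, fell by 0.69. Setd3, an actin histidine methyltransferase, rose by 0.84 ± 0.18. Their rises were 2 without CTL replicate 1 and 3 without CTL replicate 2 or 3 or IDH1mut replicate 2. In the Polycomb list 1 of 35 rose and 5 fell, 17.1% in all. Phf1, an accessory protein of the H3 lysine 27 methyltransferase complex, was the rise, from 6.75, 6.84 and 6.71 in CTL to 7.85, 7.72 and 7.71 in IDH1mut, and Bcor (-0.68 ± 0.11) and Phf19 (-0.58 ± 0.11) were among the falls. Polycomb rises were 2 without IDH1mut replicate 1 or 2. Ezh2, the catalytic subunit of that complex, did not pass (0.13 ± 0.10; adjusted p = 0.406), nor did Atm, the DNA damage kinase (-0.16 ± 0.12; adjusted p = 0.409).

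**Figure D5:**
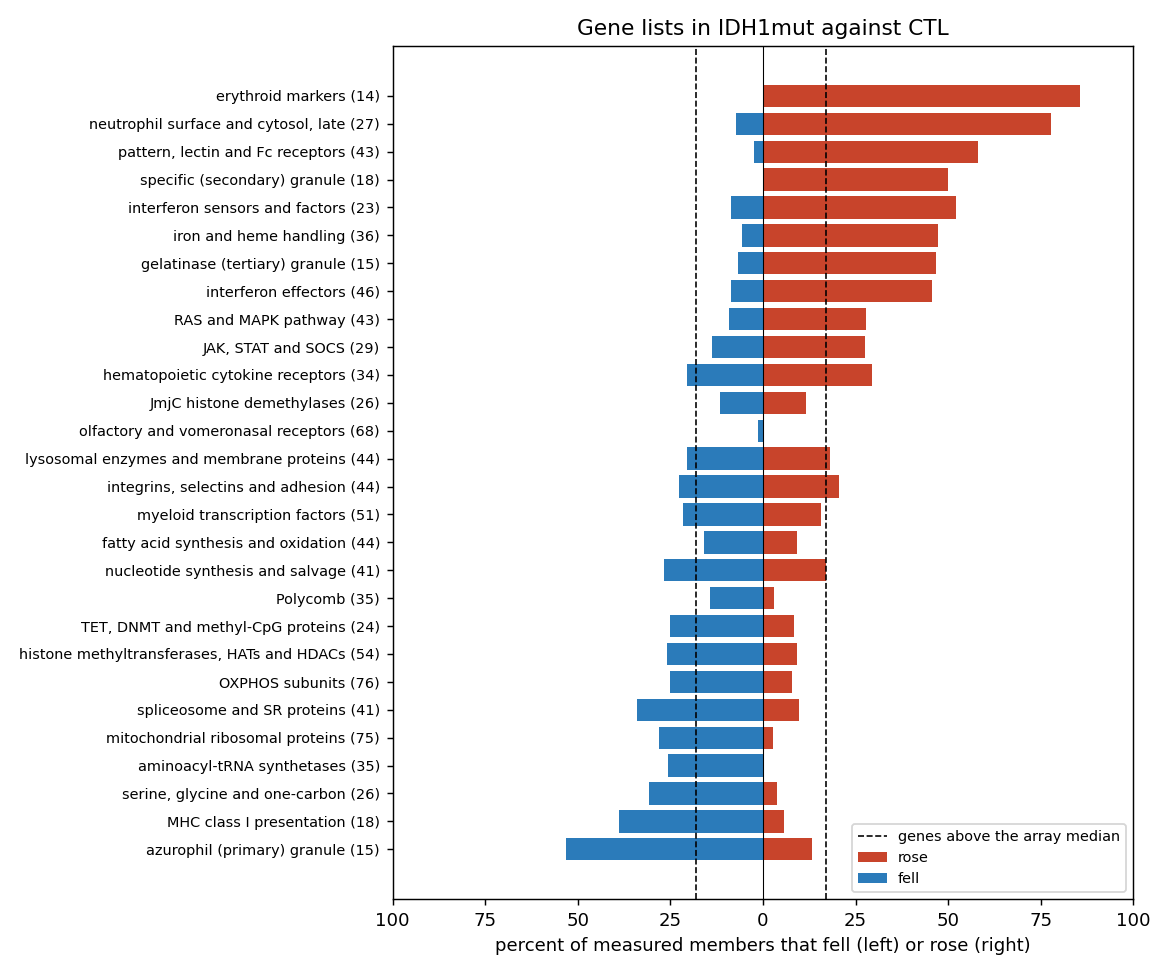
Percent of measured members (x axis) that rose (right) or fell (left) in IDH1mut against CTL for 28 gene lists, with the number measured in parentheses; dashed lines mark the shares among genes above the array median, 17% up and 18.1% down. Erythroid, late neutrophil and innate receptor lists extend furthest right, and azurophil and MHC class I lists furthest left.

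Metabolic genes changed in both directions. Of the fatty acid list 25% changed, of the nucleotide list 43.9% and of the one-carbon list 34.6%, beside 35.1% of genes above the array median. Idh2, the mitochondrial isocitrate dehydrogenase, read 9.24, 9.25 and 9.28 in CTL and 8.61, 8.57 and 8.60 in IDH1mut. In fatty acid metabolism 4 of 44 rose and 7 fell (median 0.005). The falls were 6 enzymes of beta-oxidation and Fasn, fatty acid synthase (-0.71 ± 0.11). Other genes of beta-oxidation, among them Acadm, Acadl, Acadvl, Hadhb, Cpt1a and Cpt2, did not pass. Echs1, enoyl-CoA hydratase, read 9.90, 9.59 and 9.88 in CTL and 8.90, 8.80 and 8.70 in IDH1mut. Acaa2, the thiolase, read 7.58, 7.51 and 7.70 in CTL and 6.55, 6.81 and 6.47 in IDH1mut. Acads and Hadh fell by 0.76 and 0.67 on the log2 scale. Fatty acid rises were 2 without IDH1mut replicate 2. In nucleotide synthesis 11 of 41 fell and 7 rose: Uck2, a uridine-cytidine kinase, fell by 0.75, Nme2 by 0.70 and Impdh1 by 0.52, whereas Ampd3, an AMP deaminase of red cells, rose by 0.99 ± 0.14. Nucleotide rises were 4 without CTL replicate 1. Serine, glycine and one-carbon genes fell in 8 of 26 and rose in 1, but falls were 3 without CTL replicate 1 or 2 or IDH1mut replicate 2 or 3 and 4 without CTL replicate 3 or IDH1mut replicate 1, and rises 0 without CTL replicate 1 or 2 or IDH1mut replicate 1 or 3; Aldh1l1 (-0.98 ± 0.19) and Psph (-0.54 ± 0.12) kept their fall in every such fit. Genes of eicosanoids and lipid mediators rose in 4 of 25 and fell in 2 (median -0.005), so that 24% changed. Of all genes 20.7% changed, and of genes above the array median, where 17 of the 25 lay, 35.1%. Among them Lta4h (1.0 ± 0.16), Alox5 (0.66 ± 0.09) and its partner Alox5ap (0.37 ± 0.08), which take part in leukotriene synthesis, rose, and Hpgd, which breaks prostaglandins down, fell by 0.94; Ltc4s, the leukotriene C4 synthase, did not pass.

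Mitochondrial ribosomal, oxidative phosphorylation and aminoacyl-tRNA synthetase genes had median log2 fold changes (-0.24, -0.21 and -0.16) below that of genes above the array median (-0.057). Such medians were not particular to these lists. Cytosolic ribosomal protein (-0.168), TRiC chaperonin (-0.124) and proteasome (-0.105) genes also had medians below -0.057, while that of V-ATPase genes was -0.001. Mitochondrial ribosomal protein genes fell in 21 of 75 and rose in 2 (median -0.24), and subunits of oxidative phosphorylation fell in 19 of 76 and rose in 6 (median -0.21). Among genes above the array median 18.1% fell. The counts depended on which array was left out: mitochondrial ribosomal falls were 8 without CTL replicate 3 and 9 without CTL replicate 1 or IDH1mut replicate 3. Oxidative phosphorylation falls were 9 without CTL replicate 1 or 3 or IDH1mut replicate 3. Falls over all genes also dropped in such fits, from 1879 to between 1108 and 1738. Mitochondrial ribosomal rises were 0 without CTL replicate 3 and 1 without CTL replicate 1 or 2 or IDH1mut replicate 3. Mrpl19 (-0.71 ± 0.15), Mrps33 (-0.52 ± 0.10), Ndufb2 (-0.81 ± 0.12) and Uqcrc1 (-0.51 ± 0.10) kept their fall in every fit, while Cox7c (0.98 ± 0.14) and Atp5c1 (0.87 ± 0.12) rose. Aminoacyl-tRNA synthetases fell in 9 of 35 and rose in 0 (1 at an unadjusted limma p below 0.05; 1 without IDH1mut replicate 1). Nars, for asparagine, went from 10.59, 10.49 and 10.65 in CTL to 9.90, 9.80 and 9.68 in IDH1mut. Splicing genes fell in 14 of 41 and rose in 4, with a median (-0.054) near that of genes above the array median. Prpf19 went from 8.93, 8.99 and 8.98 in CTL to 8.30, 8.14 and 7.79 in IDH1mut. The kinase gene Prpf4b rose from 5.78, 5.73 and 5.80 in CTL to 6.95, 7.11 and 7.37 in IDH1mut. Splicing falls were 6 without IDH1mut replicate 3, 7 without CTL replicate 1, 8 without CTL replicate 2 or IDH1mut replicate 2 and 9 without CTL replicate 3, and rises 1 without IDH1mut replicate 3 and 2 without CTL replicate 1 or 2 or IDH1mut replicate 2. Olfactory and vomeronasal receptors, which serve smell, changed in 1 of 68, Vmn2r26 (-1.32 ± 0.15), which fell; falls were 2 without CTL replicate 3 or IDH1mut replicate 1 or 3, and rises 1 without CTL replicate 2.

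Set against IDH1wt instead of CTL, IDH1mut differed in 2363 genes, 13.3% of those tested, 1160 up and 1203 down. Both comparisons use the IDH1mut arrays, so their values are given side by side and not as support for each other. Azurophil genes stood lower than in IDH1wt in 8 of 15 and higher in 2, specific granule genes higher in 13 of 18, and late genes higher in 17 of 27 and lower in 3. Mitochondrial ribosomal genes were lower in 5 of 75 and oxidative phosphorylation genes in 7 of 76. The count of 2363 was 1528 without IDH1mut replicate 2, with 746 in place of 1203 genes lower. Cela1, a pancreatic-type elastase, rose against CTL by 1.83 ± 0.31 but was lower than in IDH1wt (-1.33 ± 0.31; adjusted p = 0.0162), its IDH1wt arrays reading 10.94, 9.36 and 10.48 and its IDH1mut arrays 8.90, 9.24 and 8.63.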

How the data were processed

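The submitters' labels describe total RNA from sorted marrow cells on 1-colour arrays of mouse genes. The deposited values are on the log2 scale and were normalized by the authors with RMA, per the submitters' processing notes, which give no version; why the table holds 20877 probe sets is not given in the sources at hand. GEO's platform annotation gave 1 symbol for 17815 probe sets, several for 244 and none for 2818, and probe sets of the last 2 kinds were left out. Where a gene had several probe sets, the brightest by its 9-array mean stood for it, giving 17731 genes (17649 had only 1), and 17584 genes matched the RefSeq table by gene number.

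The values were analysed as deposited, with no further normalization or filter, in limma 3.58.1 (R 4.3.3; lmFit and eBayes on all 9 arrays, 3 group means, no covariate, 6 residual and 5.3 prior degrees of freedom). Tests were two-sided, with Benjamini-Hochberg adjustment over all genes and a threshold of 0.05; ± gives the moderated standard error. No arrays held identical values. The labels number replicates 1 to 3 in each group but do not say that they were separate animals, so the p-values measure the spread between these samples, which may be technical. Equal numbers did not pair the samples, by the correlation of their deviations from group means.

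Genes with array values were the 12 largest rises and falls without overlap between the groups, genes ranked 13 to 36, the 10 most abundant changed genes in each direction, and up to 4 leading members of each list; further members were named after their values were seen, and 1 of the 12 largest falls is not reported here. The members and the 51 gene lists were chosen with earlier results of these data known. The fit was tested on simulated data, and figures were drawn with matplotlib 3.10.9. Alternatives left out each array in turn, added the replicate number as a block, or changed the probe set rule, filter, scaling, variance model, array weights, arrays fitted and fold tested.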

Additional observations from a re-analysis of the deposited data

How the results depend on the processing

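With 3 arrays a group, the number of arrays limits the precision. Against a fold change of at least 1.2 instead of 0 (limma's treat), the 3663 changed genes numbered 1025, the 1784 rises 650 and the 1879 falls 375; against IDH1wt the corresponding numbers were 433, 260 and 173 in place of 2363, 1160 and 1203. The share of rises among calls was then 63.4% against 48.7%. With 1 CTL or IDH1mut array left out, called genes ranged from 2370 to 3390, rises from 1262 to 1652 and falls from 1108 to 1738; against IDH1wt they ranged from 1528 to 2193, from 782 to 1090 and from 746 to 1103. With the replicate number as a block, 3383 genes were called (1673 up, 1710 down), and 2035 against IDH1wt; equal numbers did not pair samples, since deviations of equally numbered CTL and IDH1mut arrays correlated at 0.00403, -0.0201 and 0.0173. Array weights gave 4452 calls, an intensity trend with robust variances 4123, unmoderated variances 2955, repeated quantile normalization 3767 and median centring 3528; none of these moved a total by over 1.5 times or reversed a named gene. Of the 254 named genes that were called, 223 kept the call with any 1 array left out; the block ended 3 calls, unmoderated variances 47 and the test against 1.2-fold 75.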

Other observations

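Lysosomal genes divided between rises and falls, 8 and 9 of 44 measured. The 38.6% that changed was near the 35.1% of genes above the array median. Ctse, cathepsin E, read 9.26, 9.10 and 9.26 in CTL and 10.70, 10.89 and 10.77 in IDH1mut. Cln3, a lysosomal membrane protein, read 7.91, 7.92 and 7.95 in CTL and 8.93, 8.78 and 8.86 in IDH1mut. Man2b1, alpha-mannosidase, rose by 0.95 ± 0.11 and Lgmn, legumain, by 1.02 ± 0.21. The glycosidases Glb1, Gla and Gaa and the protease Ctsb fell by 0.66, 0.70, 0.83 and 0.83 on the log2 scale. Each of these genes changed in every limma fit with 1 array left out.

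Transporters of amino acids and peptides rose in 5 of 24 and fell in 3, 33.3% in all, near the 35.1% of genes above the array median. Slc15a3, a lysosomal peptide and histidine transporter, read 6.71, 6.89 and 6.89 in CTL, 7.49, 8.13 and 7.83 in IDH1wt and 9.06, 8.45 and 8.29 in IDH1mut. Slc38a2, a glutamine transporter, rose by 0.56 ± 0.10, and Slc7a11, the cystine transporter, by 0.52 ± 0.11, whereas Slc36a4 fell from 8.19, 7.76 and 8.26 in CTL to 6.83, 7.0 and 7.27 in IDH1mut. Those falls were 1 without CTL replicate 2 or IDH1mut replicate 1. Asns, asparagine synthetase, rose by 0.74 ± 0.14. Of 21 clock genes 4 rose and 1 fell, 23.8% in all. Per1, a repressor of the clock, rose by 0.92 ± 0.16, Nr1d2 by 0.77 ± 0.15 and Csnk1e by 0.57 ± 0.10, and Rora was the fall. The clock falls were 2 without CTL replicate 1 or 3 and 3 without IDH1mut replicate 1.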
